A study of Mus musculus with 21 samples.

Results

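The nuclear-encoded subunits of the oxidative phosphorylation complexes were examined in mouse liver. Members were the protein-coding genes of the count table whose symbols begin with Nduf followed by the letter a, b, c, s or v and a digit, are Sdha to Sdhd, or begin with Uqcr, Cox4 to Cox8 or Atp5. The rule gave 84 genes of 52636 in the table, of which 37 belonged by symbol to complex I, 4 to complex II, 8 to complex III, 18 to complex IV and 17 to complex V. Ndufa4 is counted with complex I by its symbol, although its protein is now placed in complex IV. Wild-type mice were fed normal chow for 8 weeks (5 livers, labelled week 0), CDA-HFD for 8 weeks (8 livers) or CDA-HFD for 16 weeks (8 livers). CDA-HFD is a choline-deficient, amino-acid-defined high-fat diet that is used to produce steatohepatitis and fibrosis. The labels give no strain, sex or age, and the group at 16 weeks has no chow group of its own age. They do not state that each library is a separate mouse, so p-values measure the spread between these libraries.

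Oxidative phosphorylation takes electrons from NADH through complex I and from succinate through complex II, passes them through complexes III and IV to oxygen, and uses the resulting proton gradient to make ATP in complex V. Most subunits are encoded in the nucleus and imported, while a small core of complexes I, III, IV and V is encoded by mitochondrial DNA; complex II is wholly nuclear. In hepatocytes this system oxidises the products of fatty acid breakdown and supplies ATP for glucose and urea synthesis. NRF-1 and GABP (also called NRF-2) are transcription factors known to bind many promoters of these genes.

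Promoter sequence was a feature that the symbol rule did not use. RefSeq promoter windows (GRCm38.p6) were found for 66 of the 84 members, and the 250 bases before the start were searched on both strands. The palindromic core of the NRF-1 motif, CGCATGCG, was present for 7 members, or 10.61%, against 1.75% of 27025 genes with a window. The same core with a further G before it and C after it, a longer form that contains the shorter one, was present for 4 members (6.06%) against 0.88% of all genes. The GABP core CCGGAAG, or CTTCCGG on the other strand, was present for 12 members (18.18%) against 7.83% of all genes. The 6 stretches that follow were chosen to show these letters in subunits of complexes I, II, IV and V. Capitals mark the motif matches.
Ndufa11, chr17:56717677-56717736, plus strand: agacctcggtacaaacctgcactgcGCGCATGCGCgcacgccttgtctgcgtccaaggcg
Ndufs3, chr2:90904722-90904781, minus strand: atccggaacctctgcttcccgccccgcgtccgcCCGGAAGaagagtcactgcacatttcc
Sdhd, chr9:50603863-50603922, minus strand: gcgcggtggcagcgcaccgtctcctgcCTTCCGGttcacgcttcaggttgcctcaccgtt
Cox6a1, chr5:115349086-115349145, minus strand: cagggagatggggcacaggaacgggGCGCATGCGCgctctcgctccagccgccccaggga
Atp5k, chr5:108434415-108434474, minus strand: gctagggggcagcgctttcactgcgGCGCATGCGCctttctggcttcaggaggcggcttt
Atp5j, chr16:84835028-84835127, minus strand: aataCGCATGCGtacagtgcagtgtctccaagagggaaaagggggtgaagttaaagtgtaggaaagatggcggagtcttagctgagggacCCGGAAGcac
Both motifs were present for 3 members (4.55%), against 0.28% of all genes. Atp5j and Atp5l, which is not printed, held them within 100 bases. Cox6a1 also had a GABP core, outside the stretch printed here. A match describes letters in the window and is not a measured binding site.

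Libraries held 29037525 to 48901145 counts. Hepatocyte markers were abundant in every group, with the sum of 9 of them at 109540 to 152850 CPM in chow livers and 74785 to 107260 CPM at 16 weeks. CPM is the count of a gene relative to the size of its library, here scaled with TMM, a normalization that assumes most genes are equally abundant between libraries. The library of 8-week replicate 3 stood apart: its TMM factor was 0.496 against 0.884 to 1.167 in the other 7 of its group, and 0.25% of its counts came from the mitochondrial genome against 2.22% to 3.18%. Results that use it are therefore given with and without it.

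In chow livers the transcripts of these complexes differed widely in level per kilobase of transcript. Atp5b, the catalytic beta subunit of ATP synthase, was highest at 737 ± 74.7 CPM per kb (SD, n = 5). Cox4i1, the common form of complex IV subunit 4, followed at 622 ± 46.0 CPM per kb, and the small complex III subunit Uqcrq stood at 546 ± 26.1 CPM per kb. Sdha, the flavoprotein of complex II, stood at 242 ± 30.0 CPM per kb. The spread between chow livers was small, with a median coefficient of variation of 8.96% over the 74 common subunits that were tested.

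Of the 84 members, 80 passed the filter on low counts. The 4 that did not were Cox7b2 and Cox8c, isoforms of other tissues with 0 counts in all 21 libraries (which allows up to 0.0034 CPM over the libraries together, counting error only), and Atp5g2 and Atp5l with 11 and 24 counts in all. Atp5g2 and Atp5l encode the membrane-embedded c and g subunits of complex V. All 50-base windows of the Atp5g2 transcript (100%) and 84.8% of those of Atp5l also occurred in other annotated transcripts, pseudogenes among them. Such sharing concerned 46 members and was 53% for Cox7c and 66% for Atp5g1, so low levels of these genes are uncertain.

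Summed over its subunits, each complex had its lowest group mean after 16 weeks on the TMM scale, whereas with total counts alone the sum over all members was higher at 16 weeks than in chow (10180 against 9556 CPM). Complex II summed to 1598, 1470, 1299, 1506 and 1250 CPM in the 5 chow livers, and its lowest, median and highest values were 778, 937 and 1024 CPM at 16 weeks. No 16-week liver reached the lowest chow liver. Complex I summed to 2678 to 3217 CPM in chow livers, and at 16 weeks its lowest, median and highest values were 1755, 2149 and 2750 CPM, so the groups overlapped in the highest 16-week liver. Complex V, the ATP synthase, lay between 3799 and 4783 CPM in chow livers and between 2684 and 3550 CPM at 16 weeks, without overlap. Complex IV showed more overlap, with 1223 to 1455 CPM against 872 to 1473 CPM. Complex III summed to 1272 to 1520 CPM in chow livers against 815 to 1182 CPM at 16 weeks, again without overlap.

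All members together made up 0.898% to 1.02% of a chow library's counts and 0.895% to 1.21% of a 16-week library's. Thus their share of raw counts was not lower at 16 weeks, and the lower values above are relative to the other genes, which TMM sets as the reference. Scaling by total counts alone moved the median log2 change of all genes at 16 weeks from 0.03 to 0.56 and that of the 74 common subunits from -0.41 to 0.12, while the distance between the medians stayed at -0.43. With total counts and all libraries, 19 of 28 singly recomputed genes below 0 under TMM were above 0, so the changes that follow are relative to the median gene.

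**Figure D1:**
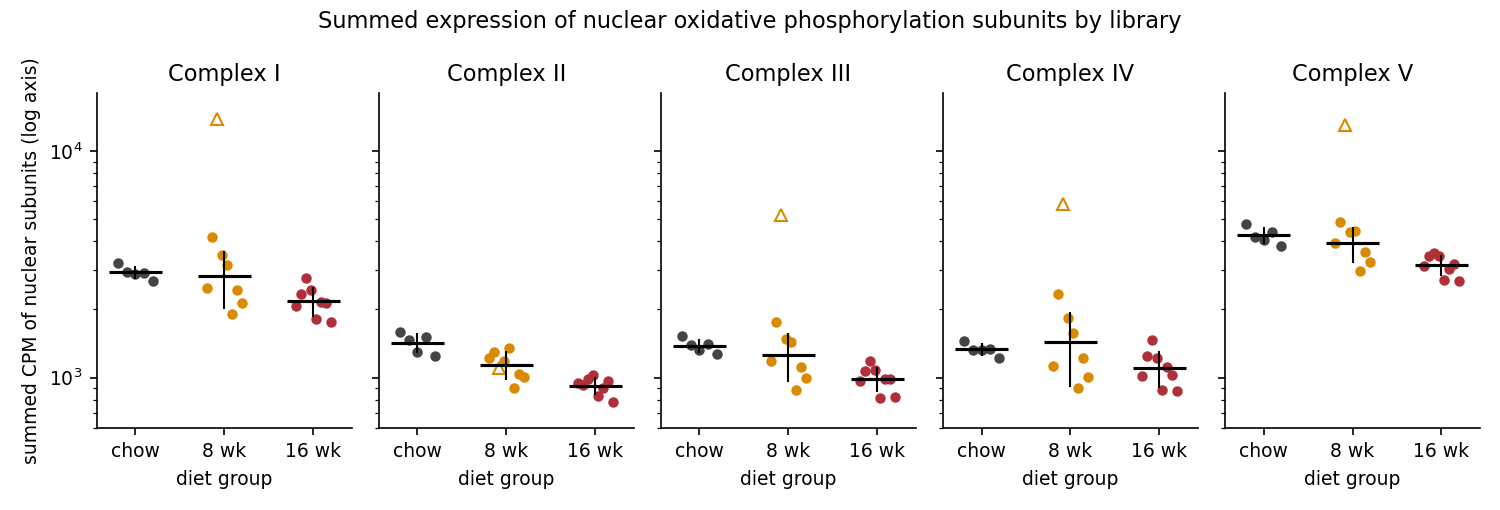
Summed CPM of the nuclear subunits of each complex (log axis) in every library, by diet group. Horizontal bars are means and vertical bars SDs without 8-week replicate 3 (open triangle). On this TMM scale the 16-week points of complexes II, III and V lie below all chow points, whereas with total counts alone the members' sum was higher at 16 weeks (10180 CPM) than in chow (9556 CPM).

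After 16 weeks of CDA-HFD, 38 members were called lower and 5 higher than in chow by edgeR's quasi-likelihood test at a Benjamini-Hochberg adjusted p of 0.05, in the fit without 8-week replicate 3. Among all 17033 genes tested, 31.4% were called lower and 34.9% higher. With all libraries the counts were 14 lower and 2 higher, against 22.5% and 29.4% of 17104 genes. The fitted changes of the members differed between these fits by at most 0.01 on the log2 scale, and their median standard error was 0.32 with the library and 0.18 without it. In 23 members every 16-week liver lay below every chow liver, in both fits, against 23.4% of all genes without the library and 23.3% with it, which is near the share among members. Cox6b2 alone lay above every chow liver, against 27.2% of all genes in either fit. With total counts alone, 1 member was called lower and 12 higher without replicate 3, and 0 and 6 with it. The share of all genes called was not counted on that scale, so these 2 pairs of counts cannot be set against it. The values of single genes in the next paragraphs come from the TMM fit without that library, in which the remaining 20 libraries share one estimate of spread.

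Complex II, which carries electrons from succinate to ubiquinone and is also an enzyme of the tricarboxylic acid cycle, stood lowest: its median change lay 0.65 below that of all genes (log2), and 4 of 4 subunits were called lower, or 3 of 4 with all libraries. Sdha measured 764, 722, 620, 796 and 600 CPM in the chow livers and 374, 419 and 478 CPM as lowest, median and highest at 16 weeks. The groups did not overlap, and the log2 change was -0.71 ± 0.10 (SE, edgeR adjusted p = 3.5e-06). Sdhd, a membrane anchor whose promoter with a GABP core is printed above, measured 277 to 345 CPM against 161 to 231 CPM (log2 change -0.67 ± 0.14, edgeR adjusted p = 0.000206). Sdhc, the other anchor, changed by -0.59 ± 0.10, and the iron-sulphur subunit Sdhb by -0.41 ± 0.15 (edgeR adjusted p = 0.0224, and 0.0994 with all libraries, where it was not called).

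In complex I, all 7 core subunits were called lower, or 2 of 7 with all libraries, and their median lay 0.52 below that of all genes. These subunits bind the flavin and iron-sulphur clusters that carry electrons from NADH. Ndufs1, the largest of them, measured 189, 179, 147, 179 and 149 CPM in chow livers against 102, 109 and 126 CPM (lowest, median, highest) at 16 weeks, without overlap. Its log2 change was -0.59 ± 0.09 (edgeR adjusted p = 1.41e-05, but 0.0675 with all libraries). The flavoprotein Ndufv1 measured 202 to 255 CPM against 124 to 179 CPM and changed by -0.60 ± 0.13. Among the 29 common accessory subunits, which surround the core and serve its assembly and stability, 13 were called lower and 0 higher, or 3 and 0 with all libraries, with a median 0.42 below that of all genes. Ndufb3 had the lowest fitted value, -0.74 ± 0.18, at 7.32 to 11.04 CPM in chow livers and 4.36 to 8.25 CPM at 16 weeks, where the groups overlapped. Ndufa6 changed by -0.64 ± 0.17 without overlap. At the other end Ndufa8, Ndufa7 and Ndufa2 had fitted changes between 0.00 and -0.09 and were not called.

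Complex III, which passes electrons from ubiquinol to cytochrome c, had 5 of 8 subunits called lower (1 of 8 with all libraries) and a median 0.48 below that of all genes. Uqcrc2, a core protein, measured 336, 312, 267, 316 and 269 CPM in chow livers against 181, 207 and 218 CPM as lowest, median and highest at 16 weeks (log2 change -0.56 ± 0.08, edgeR adjusted p = 6.65e-06). No liver of one group reached the other group's range. The Rieske iron-sulphur protein Uqcrfs1 changed by -0.59 ± 0.13 and the other core protein Uqcrc1 by -0.37 ± 0.14. Uqcrb gave -0.39 ± 0.20 and was not called.

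Complex IV, cytochrome c oxidase, had the smallest difference. Of its 11 common subunits, 2 were called lower and 1 higher, or 1 and 0 with all libraries, with a median 0.30 below that of all genes. The lower ones were Cox8a (99.8 to 109 CPM against 59.1 to 87.8 CPM, log2 change -0.50 ± 0.14) and Cox7b (-0.52 ± 0.17). Cox4i1 measured 423 to 517 CPM in chow livers and 318 to 531 CPM at 16 weeks, with a log2 change of -0.22 ± 0.20 that was not called. Cox7c was the one called higher, at 1.06 to 1.29 CPM against 1.22 to 2.15 CPM (0.50 ± 0.15, edgeR adjusted p = 0.0058, but 0.0967 with all libraries). Of the windows of the Cox7c transcript, 53% occur elsewhere, as given above.

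In complex V, 7 of the 15 subunits tested were called lower and 1 higher, or 4 and 1 with all libraries. The F1 part, which makes ATP, had Atp5a1, Atp5b and Atp5c1 lower, of which Atp5b was not called with all libraries (edgeR adjusted p = 0.0628). Atp5a1, the alpha subunit, measured 1370, 1213, 1155, 1331 and 1092 CPM in chow livers against 765, 873 and 919 CPM as lowest, median and highest at 16 weeks, without overlap. Its log2 change was -0.55 ± 0.09 (edgeR adjusted p = 2.65e-05). Atp5b changed by -0.37 ± 0.10 and the gamma subunit Atp5c1 by -0.58 ± 0.10. Among the genes of the c ring, the rotor of the enzyme, Atp5g3 changed by -0.43 ± 0.15 and Atp5g1 had a value of -0.11 ± 0.18 that was not called. Atp5s, a coupling factor of low abundance, was higher: it measured 7.54, 5.65, 3.91, 4.72 and 4.55 CPM in chow livers against 6.34, 7.79 and 9.26 CPM at 16 weeks, with overlap (log2 change 0.56 ± 0.14, edgeR adjusted p = 0.00113).

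**Figure D2:**
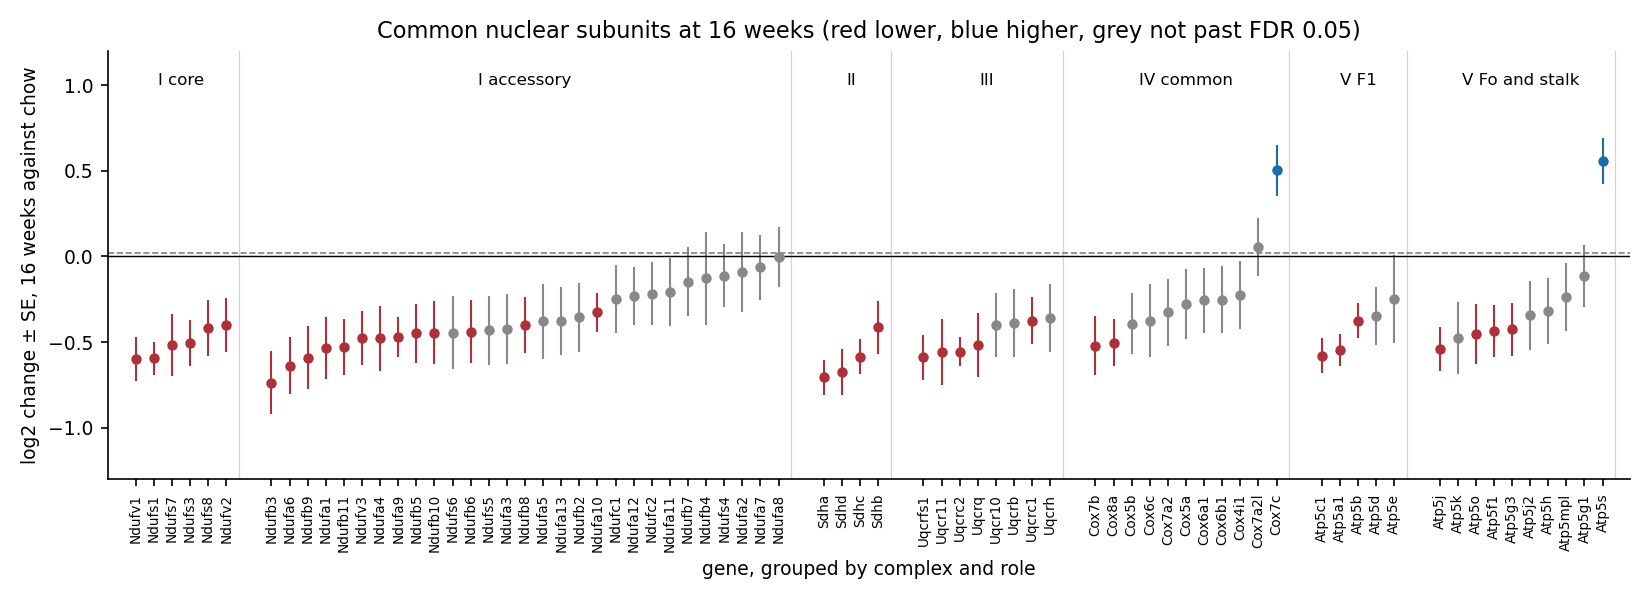
Fitted log2 change (± SE) of the common subunits tested except 1 that is not drawn, 16 weeks against chow, without 8-week replicate 3, on the TMM scale and grouped by complex and role. Red points were called lower and blue points higher, and the dashed line is the median of all genes tested (0.02). The 4 subunits of complex II and the core subunits of complex I that are drawn are all red, while with total counts alone the median of the 74 common subunits was 0.12.

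At 16 weeks the median log2 change was -0.36 for the 11 tested members with a GABP core and -0.40 for the 52 without, and 5 and 25 of them were called lower. For the NRF-1 core the medians were -0.26 over 5 members and -0.40 over 58, and 1 and 29 of them were called lower. Of all genes, 31.4% were called lower in this fit, without 8-week replicate 3. These are descriptions over a few promoters.

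After 8 weeks of CDA-HFD the answer for the group depended on 1 library. With all libraries 10 members were called higher and 2 lower than in chow, against 30.8% and 20.5% of all genes, and the median of the 74 common subunits was 0.54 on the log2 scale. Without 8-week replicate 3, 5 were called higher and 5 lower, against 31.5% and 25.8% of all genes, and the median was -0.01. With total counts alone these counts were 19 higher and 0 lower with the library, and 13 and 1 without it, where the share of all genes called was not counted. In the fit without it, Ndufa4l2 and Cox7c lay above every chow liver in all 7 livers and 0 members below, against 19.4% and 16.5% of all genes. With the library Ndufa4l2 did and 0 lay below, against 15.3% and 14.8%.

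The members called lower at 8 weeks without that library were Ndufs1, Sdha, Uqcrc2, Atp5a1 and Atp5c1, all of which were also called lower at 16 weeks. The comparisons share the chow livers. Sdha measured 445, 478 and 621 CPM as lowest, median and highest in the 7 livers (log2 change from chow -0.45 ± 0.10, edgeR adjusted p = 0.000952) and 415 CPM in replicate 3. It was also called with all libraries (-0.48 ± 0.12), as was Atp5c1 (-0.32 ± 0.11, and -0.35 ± 0.11 without the library). Ndufs1 changed by -0.38 ± 0.10, Uqcrc2 by -0.37 ± 0.09 and Atp5a1 by -0.24 ± 0.10. Among common subunits, Cox7c (1.49 to 2.27 CPM in the 7 livers, 0.70 ± 0.15) and Atp5s (6.96 to 9.75 CPM, 0.63 ± 0.14) were called higher, and Atp5s was called with all libraries too (0.65 ± 0.14).

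**Figure D3:**
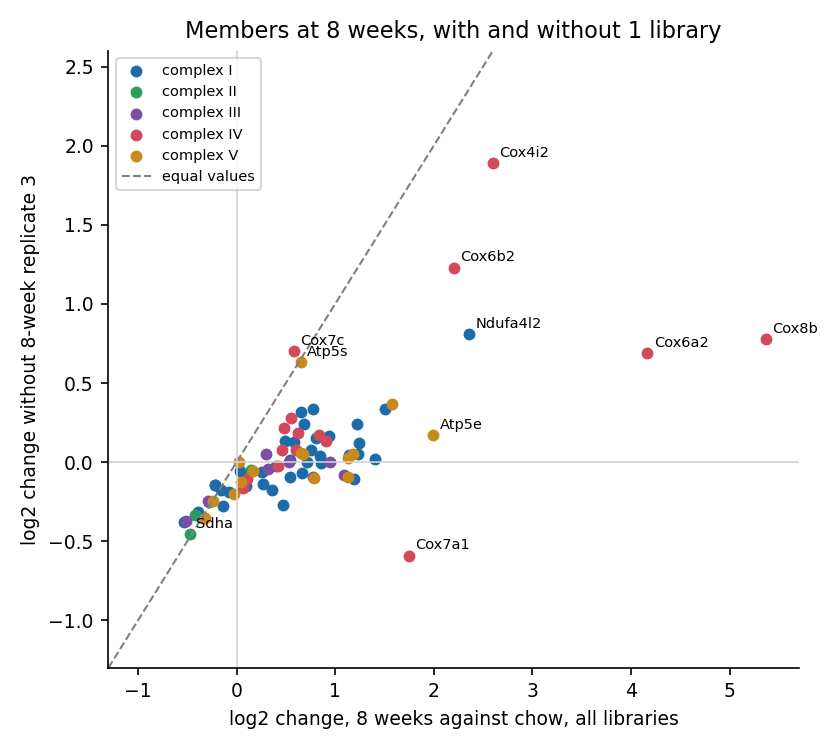
Fitted log2 change of the 80 members tested at 8 weeks against chow, with all libraries (horizontal) and without 8-week replicate 3 (vertical), coloured by complex. Most common subunits lie right of 0 but near 0 on the vertical axis, where their median is -0.01 against 0.54 on the horizontal one. Cox8b and Cox6a2 shift most.

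In replicate 3 of the 8-week group, 54 of the 74 common subunits were over 2-fold above the mean of the other 7 livers and 5 were under 0.5 of it. Atp5e, the small epsilon subunit of F1, reached 3295 CPM there, against 85.8, 129 and 296 CPM as lowest, median and highest in the other 7. Ndufs1 and Uqcrc2, by contrast, stood at 20.8 and 48.0 CPM there, below the lowest of the other 7 (109 and 194 CPM). By class median the departure fell with transcript length. The median log2 ratio to the other 7 was 3.25 for the 8 members with transcripts under 500 bases and 2.15 for the 39 from there to under 1000. It was 1.16 for the 22 from there to under 2000, and -0.31 for the 5 from there to under 4000. Other protein-coding genes went the same way, with 1.88, 1.44, 0.54 and -0.21 in the same classes and -0.75 at 4000 and over. In each class under 2000 bases the members' median thus lay above that of other genes of like length. Single members varied widely within a class, from -1.40 to 3.45 at 500 to under 1000 bases. At 1000 to under 2000 bases they ranged from -2.27 to 3.64, so length alone did not order them. The 70 cytosolic ribosomal protein genes tested, most of which also have short transcripts, had a median of 1.75. Their median was 1.55 for the 16 from 1000 to under 2000 bases. The labels give no measure of RNA quality, and its part in this library was not tested.

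**Figure D4:**
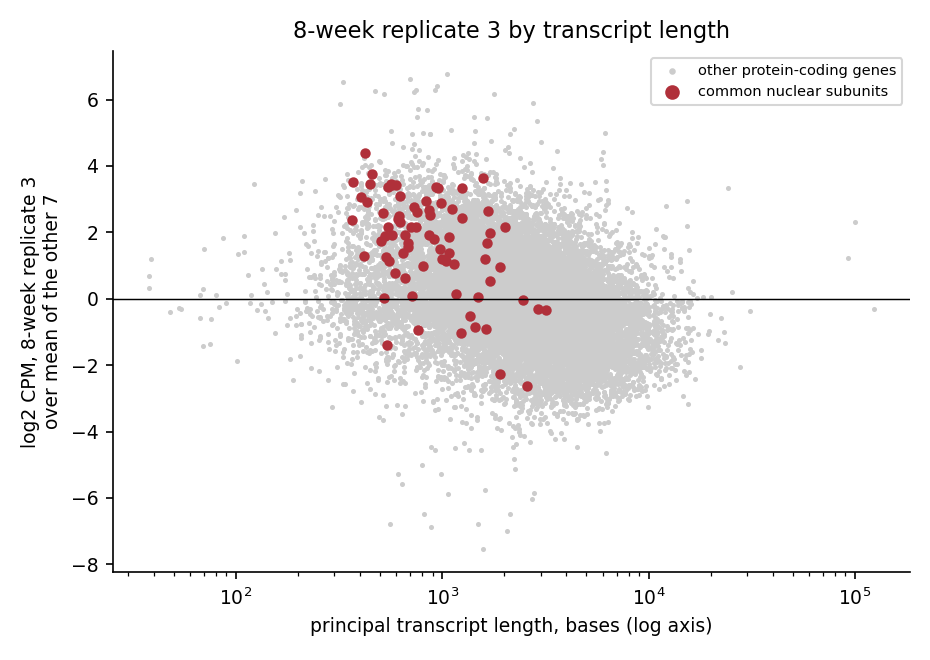
Log2 ratio of CPM (with 0.5 added to each side) in 8-week replicate 3 over the mean of the other 7 livers of its group, against the length of the principal transcript (log axis). Red points are common nuclear subunits. Grey points, labelled as other protein-coding genes in the key, are all other genes tested apart from members, and include some that are not protein-coding. Short transcripts lie mostly above 0, and Ndufs1 and Uqcrc2 are the lowest red points.

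A milder length difference ran through the other diet-fed livers. An index was taken as the median log2 ratio to chow of protein-coding genes under 1000 bases minus that of genes of 4000 bases or more. It ranged from -0.077 to 0.081 in chow livers, from 0.021 to 1.295 in the 8-week livers other than replicate 3 (2.743) and from 0.026 to 0.767 at 16 weeks. The 3 highest 16-week libraries by this index, replicates 2, 3 and 4, also had the 3 highest sums over all members, at 9043, 9946 and 9200 CPM against 6910 to 8292 CPM in the other 5. Likewise 8-week replicates 2, 4 and 5 were next after replicate 3 in both, with sums of 14434, 12368 and 11967 CPM against 7548 to 9953 CPM in the rest. Leaving out 8-week replicates 3, 4 and 5 together, with replicate 2 kept, gave 5 members called higher and 8 lower at 8 weeks. The share of all genes called was not counted in that fit. Replicates 4 and 5 also held 8645 and 404 CPM of exocrine pancreas genes, against at most 80.2 CPM in the other libraries. At 16 weeks the members were lower than other genes in each length class: their medians were -0.44, -0.38, -0.44 and -0.59 from the shortest to the longest class, and those of other protein-coding genes 0.22, 0.19, 0.16 and 0.09. Complex II and the core of complex I have longer transcripts (medians 2066 and 1623 bases) than the 84 members together (730 bases), and the part of length in their order was not tested.

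Between 16 and 8 weeks, which share no livers, 54 members were called lower and 0 higher with all libraries, and 22 and 0 without 8-week replicate 3. The background was 11% lower and 10.6% higher with all libraries, and 12.5% and 14.8% without. At an unadjusted p of 0.05 edgeR also had 0 higher in both fits, and 67 and 55 lower. DESeq2's Wald test called 0 higher and limma voom with sample quality weights called 2. Shares of all genes passing were not counted at the unadjusted threshold, for these 2 tests or for total counts alone. The median change of the common subunits was -0.37 without that library and -0.79 with it, and all 74 had a fitted value below 0 without it, on the TMM scale. With total counts alone no member was called and the median without the library was -0.06, which lay 0.35 below that of all genes. In 0 members did the 2 groups not overlap, against 2.58% (higher) and 0.509% (lower) of all genes, or 3.62% and 0.804% without the library. Called members without the library included 5 of 7 complex I core subunits, Sdha (-0.25 ± 0.09, edgeR adjusted p = 0.0476), Atp5a1 (-0.30 ± 0.08, edgeR adjusted p = 0.0115) and Atp5g3 (-0.43, fitted log2 change). The count rested on few livers: leaving out 8-week replicate 5 as well gave 4, and leaving out 8-week replicate 6 as well gave 59.

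Some subunits of complexes I and IV have isoforms for other tissues. Cox6a2, Cox7a1 and Cox8b are the forms of heart and skeletal muscle, Cox6b2 is known from testis, Cox4i2 is a lung form that also responds to low oxygen, and Ndufa4l2 is induced by low oxygen. In the libraries other than 8-week replicate 3 all were scarce beside their partners. In replicate 3, per kilobase, Cox8b stood at 54.9% of Cox8a, Cox7a1 at 12% of Cox7a2 and Cox6a2 at 7.7% of Cox6a1. Cox4i2 measured 0.221, 0.0574, 0.101, 0 and 0.0822 CPM in chow livers, and 0.129 to 0.657 CPM in 7 livers at 8 weeks, with 2.43 CPM in replicate 3. At 16 weeks it ranged from 0.160 to 0.788 CPM, and its log2 change from chow was 2.01 ± 0.55 (edgeR adjusted p = 0.00293) at 16 weeks and 1.89 ± 0.57 (edgeR adjusted p = 0.00755) at 8 weeks. Per kilobase this was at most 0.183% of Cox4i1 in any library.

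Ndufa4l2 measured 1.69, 1.15, 1.45, 1.13 and 1.12 CPM in chow livers and 1.74 to 3.27 CPM in 7 livers at 8 weeks, above all chow livers, with 38.9 CPM in replicate 3. It was called higher at 8 weeks with that library (2.36 ± 0.72) and without it (0.81 ± 0.19, edgeR adjusted p = 0.00136). At 16 weeks, with 1.43 to 2.59 CPM, it changed by 0.59 ± 0.19 (edgeR adjusted p = 0.00896, but 0.492 with all libraries). Cox6b2 rose from 0.0869 to 0.294 CPM in chow livers to 0.329 to 0.999 CPM at 16 weeks without overlap (log2 change 1.51 ± 0.39, edgeR adjusted p = 0.00172, but 0.0597 with all libraries). Of 11 genes of the low-oxygen response, 2 were called higher at 16 weeks and 7 lower, or 2 and 6 with all libraries. Of all genes, 34.9% were called higher and 31.4% lower without replicate 3. The higher ones were Adm, a vasodilator peptide, and Slc2a1, a glucose transporter. Among the lower ones Pdk1, an inhibitor of pyruvate dehydrogenase, changed by -1.74 and Epas1, a low-oxygen transcription factor, by -1.31.

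The muscle forms were highest in the library with the most muscle transcripts. In 8-week replicate 3 Cox6a2 stood at 61.8 CPM, Cox7a1 at 35.7 CPM and Cox8b at 77.5 CPM, while the sum of 14 skeletal muscle genes was 3647 CPM there. In the other 20 libraries that sum lay between 0.753 and 494 CPM. Chow replicate 5, 8-week replicate 6 and 16-week replicates 1, 4 and 7 held 279 to 494 CPM of these genes and the others at most 44.5 CPM. Cox8b was 0.949 to 2.65 CPM in those 5 and at most 1.27 CPM in the others outside replicate 3. Cox6a2 likewise was 1.59 to 5.18 CPM in those 5 and at most 1.05 CPM in the same others. Cox7a1 did not follow the muscle sum in this way. It was 1.62 CPM in chow replicate 5 against 2.02 CPM in chow replicate 1. In 16-week replicates 1 and 7 it was 1.085 and 1.22 CPM, against 1.72 CPM in replicate 2. In 8-week replicate 6 it was 0.941 CPM, below replicates 2, 4 and 5. Of those 5 libraries, only 16-week replicate 4 was the highest of its group, at 2.43 CPM. With all libraries Cox6a2 and Cox8b were called higher at 8 weeks (log2 changes 4.17 ± 1.59 and 5.37 ± 1.95), and without replicate 3 neither was (0.69 ± 0.96 and 0.78 ± 1.16). Cox7a1 was not called in any comparison of either fit. The sum of squamous epithelium genes was also highest in replicate 3 (1777 CPM, against at most 290 CPM elsewhere), and the part of other tissue in these values was not tested.

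**Figure D5:**
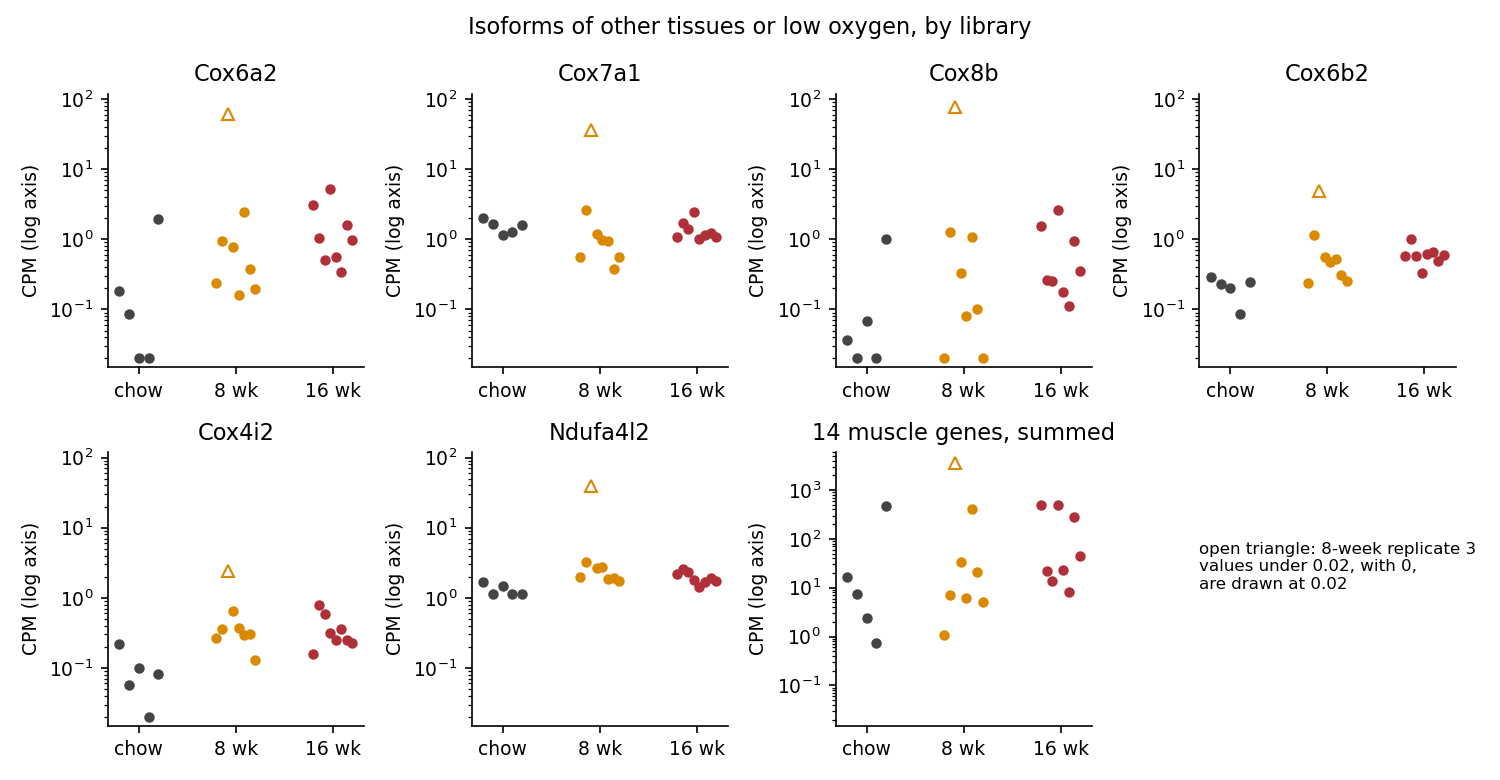
CPM (log axis) of 6 isoform genes in every library by diet group, with the sum of 14 skeletal muscle genes as the last panel. The open triangle is 8-week replicate 3, the highest point in each panel. Cox4i2 and Ndufa4l2 lie higher in most diet-fed livers than in chow livers, and the highest points of Cox6a2, Cox8b and the muscle sum are the same library.

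Other genes of the system were set beside the members at 16 weeks, in the fit without replicate 3. In that fit 31.4% of all genes were called lower and 34.9% higher. Of the 13 protein genes of mitochondrial DNA, 12 were called lower, with a median 1.14 below that of all genes, a larger distance than the 0.43 of the nuclear subunits; the difference between them was not tested. mt-Nd5 changed by -1.72 ± 0.24 and mt-Nd2 by -1.49 ± 0.13, while mt-Nd3 at -0.66 ± 0.29 was not called. The mitochondrial genome gave 4.23% to 5.34% of counts in chow livers and 2.37% to 3.15% at 16 weeks. Of 44 assembly factors tested, 23 were called lower and 0 higher (19 and 0 with all libraries), led by the complex IV factor Coa5 (-0.92 ± 0.09). Of 18 electron carriers and feeders, 11 were called lower (7 with all libraries), among them Coq8a of ubiquinone synthesis (-1.32 ± 0.15) and the cytochrome c1 gene Cyc1 (-0.64 ± 0.12). In the tricarboxylic acid cycle 7 of 13 were called lower and 1 higher (7 and 0 with all libraries), with fumarase, Fh1, at -1.20 ± 0.15 and Idh3a at 0.33 ± 0.11. Atpif1, the inhibitor protein of ATP synthase, was higher (1.34 ± 0.23), as was the uncoupling protein gene Ucp2 (2.57 ± 0.16). Their lists did not rise as a whole. Of 4 tested genes of the complexes outside the symbol rule, Atpif1 among them, 1 was called higher and 2 lower with all libraries. Of 7 tested genes in the uncoupling list, Ucp2 among them, 2 were called higher and 2 lower in that fit.

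Regulators of mitochondrial gene expression had 10 of 15 genes called lower (9 with all libraries). Esrrb changed by -1.73 ± 0.27, Esrrg by -1.52 ± 0.34 and Ppara, a receptor that drives fatty acid oxidation, by -1.40 ± 0.30. Gabpa, a subunit of GABP, changed by -0.88 ± 0.16, whereas Nrf1 stood at 0.01 ± 0.07 and was not called. Of 75 mitochondrial ribosomal protein genes, 25 were called lower and 1 higher (13 and 0 with all libraries), with a median 0.19 below that of all genes; 31.4% of all genes were called lower in this fit, a share near that of this list. Cytosolic ribosomal proteins, which also have short transcripts, had a median 0.30 above it. Over the same livers 7 of 9 hepatocyte markers were called lower, with a median 1.23 below that of all genes, and 8 of 8 macrophage markers higher, with a median 4.58 above it. The macrophage markers summed to 193 to 273 CPM in chow livers and 2509 to 4594 CPM at 16 weeks. In bulk liver, fewer hepatocytes and less RNA of these genes per hepatocyte cannot be told apart, and the part of cell makeup in the members' changes was not tested.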

How the data were processed

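Total RNA was extracted from mouse liver, and stranded libraries were sequenced from 21 samples. Raw counts for every Ensembl gene were deposited by the authors, per sample and as one table; the build is GRCm38, per the submitters' processing notes, while aligner and counting tool were not given in the sources used. Each sample's own counts were identical to its column of the table (21 of 21), and 52489 of 52636 identifiers had a symbol. Groups were taken from the labels. Genes were filtered by edgeR's filterByExpr, scaled with TMM and tested with edgeR 4.0.16 quasi-likelihood fits of all groups in R 4.3.3, with Benjamini-Hochberg adjustment over all genes at 0.05; 17104 genes were tested, or 17033 without 8-week replicate 3. The fit was tested on simulated data. CPM uses TMM-adjusted library sizes. Alternatives were DESeq2 1.42.0, limma 3.58.1 voom, total counts, other filters, 2-group fits and libraries left out; those added to the fit without 8-week replicate 3 were chosen after seeing the data. Without that library the spread is estimated from 20 libraries. Transcript length is that of the principal transcript with the best annotated support, or the shortest of those that tied. Shared sequence was counted in windows of 50 bases. Libraries held 29037525 to 48901145 counts, so low genes such as Cox4i2 rest on few counts.

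The members and gene lists were chosen with earlier results of these data known. Members described in full were a panel set by role, the tissue isoforms with their partners and the 5 largest fitted rises and falls per comparison; Sdhc, Atp5c1, Ndufa7, Cox7b and Uqcrc2 among others were named after their values were seen. Of the other lists, up to 3 called genes with the largest change were eligible for naming, and Nrf1, Gabpa, Ppara, Idh3a and mt-Nd3 were named after their values were seen. A member of the panel is counted in all summaries but not reported singly here.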

Additional observations from a re-analysis of the deposited data

Results flagged for a closer look

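Single libraries that lay far from the rest of their group were looked for among the sums and named members, by the gap to the nearest library as a share of the group's range. Of 132 groups of values tested, 33 had such a library. The 132 include the groups of Cox7b2 and Cox8c, which had 0 counts in every library and could not be flagged. A chance rate of about 1 in 20 holds for independent and normally distributed values. The distribution was not checked, and the members were correlated across 8-week livers (median r 0.945). Some named members were also chosen for their large fitted changes with all libraries, which 8-week replicate 3 enters. The counts are thus descriptions and were not set against chance. In 27 of the 33 groups the library was 8-week replicate 3.

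That library was highest for the sums of complex I (13890 CPM), III (5228 CPM), IV (5836 CPM), V (13128 CPM) and all members (39188 CPM). It was highest for the complex I genes Ndufv1 (1204 CPM), Ndufb8 (246 CPM) and Ndufa4 (909.7 CPM) and for Uqcrc1 of complex III (940.5 CPM). In complex IV it was highest for Cox4i1 (2187 CPM), Cox6c (350.2 CPM), Cox6a1 (674 CPM), Cox6b1 (1089 CPM), Cox7a2 (499.7 CPM) and Cox8a (216 CPM). In complex V it was highest for Atp5b (2528 CPM), Atp5g1 (73.6 CPM) and Atp5e (3295 CPM). Among isoforms of other tissues it was highest for Cox4i2 (2.43 CPM), Cox6a2 (61.8 CPM), Cox6b2 (4.87 CPM), Cox7a1 (35.7 CPM), Cox8b (77.5 CPM) and Ndufa4l2 (38.9 CPM). It was lowest for Ndufs1 (20.8 CPM), Uqcrc2 (48.0 CPM) and Cox7c (0.417 CPM).

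Among chow livers, replicate 1 was far above the others for Ndufb8 (102.6 CPM) and Cox7b (46.6 CPM), replicate 4 for Atp5g2 (0.0290 CPM) and replicate 5 for Cox6a2 (1.92 CPM) and Cox8b (1.01 CPM). Among 8-week livers, replicate 7 was far above the others for Atp5g2 (0.0762 CPM). The values of Atp5g2 rest on 11 counts over all libraries.

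The change from chow differed between 8 and 16 weeks, by the direct edgeR test of 16 against 8 weeks, for 54 members with all libraries and 22 without 8-week replicate 3, all lower at 16 weeks on the TMM scale; with total counts alone 0 members differed.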

How the results depend on the processing

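No paired analysis was possible because the labels give no replicate numbers shared across groups. The distance of the members' median from that of all genes at 16 weeks kept its sign under every alternative run, between -0.359 and -0.524. Counts of members called moved more, and the cause was not tested. Shares of all genes called were counted only for the main fits with and without 8-week replicate 3. Member counts from the other fits, here and in the next paragraph, have no such share beside them. Whether they moved apart from the calls of all genes was not tested. With all libraries, 8 weeks against chow gave 10 higher and 2 lower; the higher count was 19 with total counts, 6 with DESeq2's Wald test, 5 with limma voom, 4 with the 2 groups alone, 5 without 8-week replicates 3, 4 and 5 and 6 without the 6 libraries rich in muscle transcripts, and the lower count was 6 with DESeq2 size factors, 0 with total counts, 8 with the Wald test, 20 with voom, 8 without replicates 3, 4 and 5 and 4 without the muscle-rich libraries. At 16 weeks (2 higher, 14 lower) the higher count was 6 with total counts, 1 with a filter at a mean of 1 CPM, 5 with the Wald test, 7 with voom and 5 with 2 groups, without replicates 3, 4 and 5 and without the muscle-rich libraries; the lower count was 0 with total counts, 9 with no filter, 29 with the Wald test, 61 with voom, 54 with 2 groups, 39 without replicates 3, 4 and 5 and 31 without the muscle-rich libraries. For 16 against 8 weeks (0 higher, 54 lower), voom gave 2 higher, and the lower count was 0 with total counts, 21 with no filter, 17 with voom, 1 with 2 groups, 0 without replicates 3, 4 and 5 and 35 without the muscle-rich libraries. Without 8-week replicate 3, total counts gave 13 higher and 1 lower at 8 weeks, 12 and 1 at 16 weeks and 0 lower between them, and voom gave 27 lower at 8 weeks, 64 lower at 16 weeks, and 2 higher and 12 lower between them. The mean sum over members was 11300 CPM in chow and 8342 CPM at 16 weeks, and 9556 and 10180 CPM with total counts or 14880 and 10980 CPM without the 20 most abundant genes.

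Leaving out 1 library gave 4 to 19 higher and 1 to 6 lower at 8 weeks, 1 to 5 higher and 10 to 38 lower at 16 weeks, and 0 higher and 8 to 65 lower between them. The 8-week higher count was 4 without chow replicate 1, 2, 3 or 4, 6 without chow replicate 5, 5 without 8-week replicate 3 and 19 without 8-week replicate 6; the lower count was 1 without chow replicate 1, 6 without 8-week replicate 2 and 5 without 8-week replicate 3 or 5. The 16-week higher count was 1 without chow replicate 2, 4 or 5 or 16-week replicate 2, and the 16-week counts were 5 higher and 38 lower without 8-week replicate 3. The lower count of 16 against 8 weeks was 30 and 22 without 8-week replicates 2 and 3, and 24, 27, 9, 18, 24 and 8 without 16-week replicates 1, 2, 5, 6, 7 and 8. With 8-week replicate 3 already out, leaving out 1 more gave 5 to 7 higher and 4 to 13 lower at 8 weeks (13 without 8-week replicate 2), 5 to 7 higher and 27 to 46 lower at 16 weeks, and 0 to 1 higher and 4 to 59 lower between them. That last lower count was 7, 4, 59 and 35 without 8-week replicates 2, 5, 6 and 8, 5 without 8-week replicate 4, and 46, 8, 14 and 7 without 16-week replicates 3, 5, 6 and 8.

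With total counts and all libraries, 19 of the 28 singly recomputed genes that were below 0 at 16 weeks under TMM were above 0, among them Cox4i1 (0.31), Uqcrc1 (0.16), Atp5b (0.16) and Sdhb (0.12), and 13 of 35 turned likewise for 16 against 8 weeks. Where a gene turned direction and was called in one of the fits compared, the values were as follows. With total counts, the 16-week log2 changes of Ndufa9, Atp5g3 and Cox8a were 0.064, 0.105 and 0.029, and Atp5a1 and Atp5b stood at 0.094 and 0.057 for 16 against 8 weeks. At 8 weeks with all libraries Ndufv1 was -0.32 with the Wald test, -0.33 with voom and -0.36 without replicates 3, 4 and 5, and voom gave -0.14 for Atp5e and -1.16 for Cox7a1. For 16 against 8 weeks voom gave 0.68 for Cox6b2 and 0.95 for Cox7a1.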

Other observations

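Symbols that match the pattern but are not protein-coding numbered 12 and were left out of the members. The most abundant gave reads at levels like those of some subunits. Ndufb1-ps, annotated as a long non-coding RNA, had 44.2, 50.7 and 56.5 CPM as lowest, median and highest in chow livers and 30.3, 38.3 and 54.7 CPM at 16 weeks. Cox6c2 had 37.3, 42.8 and 45.8 CPM in chow livers and 23.7, 29.8 and 34.9 CPM at 16 weeks, without overlap. Ndufs6b had 23.8, 27.1 and 28.4 CPM in chow livers and 16.5, 19.4 and 24.6 CPM at 16 weeks. At 8 weeks the highest library reached 173 CPM for Ndufb1-ps, 57.4 CPM for Cox6c2 and 175 CPM for Ndufs6b.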
